A study of Mus musculus with 10 samples.

Results

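The muscarinic acetylcholine receptors, which are the targets of atropine, are encoded in the mouse by Chrm1, Chrm2, Chrm3, Chrm4 and Chrm5. They were taken by gene name, and all 5 were present among the 26360 genes listed for 10 RNA sequencing libraries. The libraries came from wild type C57BL/6J mice at postnatal day 34. By its label the tissue held the retinal pigment epithelium with choroid and sclera, although the extraction text speaks of retinae. Each of 5 animals, numbered 61, 64, 65, 66 and 68, gave 1 left-eye and 1 right-eye library. A -20 D lens, which induces myopia in young animals, was held in a goggle over a single eye from postnatal day 24 for 10 days, after anesthesia with ketamine and xylazine, and the fellow eye went without a lens. The labels give the side of an eye but not whether it wore the lens, so eyes were grouped by side, 5 left and 5 right, and whether a value is higher on the right or the left says nothing of the treatment.

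Muscarinic receptors are G protein-coupled receptors for acetylcholine, the transmitter of parasympathetic nerves. The products of Chrm1, Chrm3 and Chrm5 couple to Gq/11 proteins, which activate phospholipase C and release calcium from stores. The products of Chrm2 and Chrm4 couple to Gi/o proteins, which inhibit adenylyl cyclase and open inward rectifier potassium channels. In the eye, the M3 receptor drives contraction of the iris sphincter and the ciliary muscle, and M2 receptors on nerve endings restrain transmitter release. Atropine blocks all subtypes without strong preference and is used to slow myopia in children.

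The 5 genes resemble each other in part, so a functionally shared stretch is shown for comparison. It begins at the codons of the conserved Asp-Arg-Tyr motif at the inner end of the third transmembrane helix, a motif central to G protein activation, and it runs into the second intracellular loop. Each sequence is the reference coding strand of GRCm38 (GENCODE M21), 5′ to 3′, with the Asp-Arg-Tyr codons in capitals.
Chrm1, chr19:8678296-8678355, plus strand: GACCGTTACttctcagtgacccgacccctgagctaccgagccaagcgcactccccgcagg
Chrm2, chr6:36523567-36523626, plus strand: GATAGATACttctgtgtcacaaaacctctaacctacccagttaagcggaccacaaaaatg
Chrm3, chr13:9878450-9878509, minus strand: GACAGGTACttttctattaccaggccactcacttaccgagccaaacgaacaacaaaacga
Chrm4, chr2:91927630-91927689, plus strand: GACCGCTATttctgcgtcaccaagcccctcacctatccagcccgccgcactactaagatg
Chrm5, chr2:112480332-112480391, minus strand: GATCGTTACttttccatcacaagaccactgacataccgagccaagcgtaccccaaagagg
Of the 60 positions, 26 held the same base in all 5 genes, and pairs agreed at 61.7% (Chrm1 with Chrm2, and Chrm3 with Chrm4) to 73.3% of positions (Chrm1 with Chrm5, and Chrm3 with Chrm5). The first 3 codons spell the same 3 amino acids in each gene through different bases. Over the whole coding sequence, aligned pairs were 65.9% (Chrm1 with Chrm2) to 73.1% identical (Chrm1 with Chrm5). The longest identical run between any pair of transcripts was 29 bases, in Chrm1 and Chrm4. The sources used here do not state how reads matching more than 1 place were treated.

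The coding sequence of each receptor lies in 1 exon, as is typical of this family, and the genes differ mainly in their noncoding exons and introns. Chrm1 spans chr19:8663789-8683587 on the plus strand, with 6487 bases of exon. Chrm2 spans chr6:36388084-36528414 on the plus strand, with 6053 bases of exon. Chrm3 spans chr13:9875486-10360847 on the minus strand, and its 6253 bases of exon make up 1.29% of that span. Chrm4 (chr2:91927249-91928688, plus strand) and Chrm5 (chr2:112479171-112480769, minus strand) were listed with 1440 and 1599 bases, nearly all of them coding. RefSeq (GRCm38.p6) gives Chrm4 a span of 7647 bases and Chrm5 one of 57629 bases, so untranslated exons of these 2 genes lay outside the listed coordinates. By their listed coordinates, other listed genes overlap Chrm2 and Chrm3 but not Chrm1, Chrm4 or Chrm5. The one at Chrm2, 9330158H04Rik on the opposite strand, had a mean of 0.106 CPM.

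Library totals implied by the steps between low values were 66.9 to 94.3 M reads (M, mega), so that 3 reads were worth 0.0318 to 0.0448 CPM (counts scaled to the library total). All 50 receptor values were whole reads within 0.001 of a read. Pigment epithelium markers were abundant (Rgr 1964, Ttr 1571 and Rpe65 777 CPM, means of 10 libraries), with Best1 at 0.501 CPM. Melanocyte, fibroblast and endothelial markers were present too, led by Dct (1527 CPM), Col1a2 (2715 CPM) and Kdr (106 CPM), so the labelled tissue was represented. Genes that mark other tissues were also measured: summed skeletal muscle markers ranged from 1965 to 9096 CPM, surface epithelium markers from 165 to 964 CPM, and rod markers from 117 to 1702 CPM over the libraries. Of markers for autonomic neurons, Phox2a (0.0222), Dbh (0.0579), Vip (0.121) and Th (0.123 CPM) were near 0, and Nos1, at 21.3 CPM, made up nearly all of that list's sum. In such bulk tissue, fewer cells of a type and less RNA per cell cannot be told apart.

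Chrm2, Chrm3 and Chrm1 were detected in every library by at least 153 reads, Chrm4 was detected at a low and variable level, and Chrm5 was close to the limit of detection. Chrm2, the Gi/o-coupled receptor of heart and smooth muscle, had a mean of 5.42 ± 0.977 CPM (SD, n = 10 libraries) from 4359 reads in all. Chrm3, the Gq/11-coupled receptor of smooth muscle and glands, had a mean of 4.11 ± 0.702 CPM from 3337 reads. Chrm1, the Gq/11-coupled receptor best known from neurons, had a mean of 2.57 ± 0.650 CPM from 2031 reads. Chrm4, the second Gi/o-coupled receptor, had a mean of 0.514 ± 0.291 CPM from 400 reads. Chrm5, the third Gq/11-coupled receptor, had a mean of 0.0761 ± 0.0504 CPM from 61 reads, and 2 of its 10 libraries held fewer than 3 reads. Fellow eyes are not separate animals, so these SDs mix the spread between eyes and between animals.

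Per kb of exon, which allows levels of different genes to be compared, the order was Chrm2, Chrm3, Chrm1, Chrm4, Chrm5. Chrm2 stood at 0.896 ± 0.161, Chrm3 at 0.657 ± 0.112, Chrm1 at 0.397 ± 0.10, Chrm4 at 0.357 ± 0.202 and Chrm5 at 0.0476 ± 0.0315 CPM per kb (SD, n = 10 libraries). Neighbours in this order overlapped in their ranges over libraries. Within libraries, Chrm2 exceeded Chrm3 in 9 of 10, with right eye 66 as the exception, and Chrm3 exceeded Chrm1 in 9 of 10, with left eye 64 as the exception. Chrm1 exceeded Chrm4 in 6 of 10 libraries only, so these neighbours were not separated on this scale. Chrm4 exceeded Chrm5 in 9 of 10 libraries. Per kb of coding sequence the order was the same, although reads from untranslated exons still count there for Chrm1, Chrm2 and Chrm3. Coding sequence was 21.3%, 23.1% and 28.3% of their exons, against 99.8% for Chrm4 and Chrm5, so this scale raises the former against the latter. On it Chrm1 (1.87 ± 0.471 CPM per coding kb) exceeded Chrm4 (0.358 ± 0.202) in 10 of 10 libraries, and Chrm3 exceeded Chrm1 in 7 of 10. The separation of Chrm1 from Chrm4 on it cannot be told apart from that unequal scaling.

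**Figure D1:**
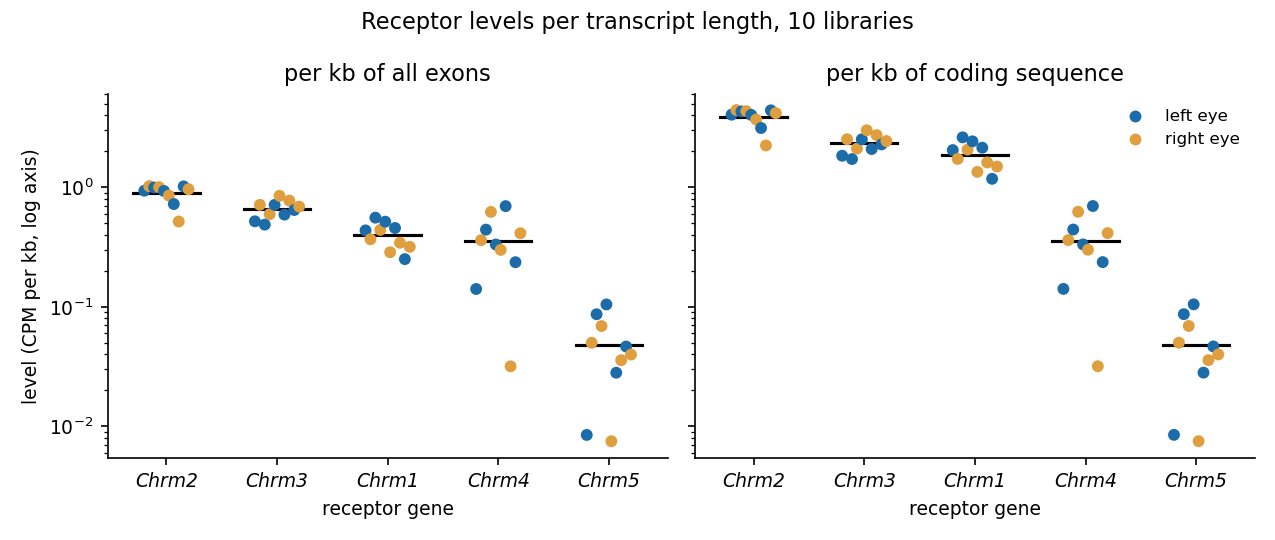
Levels of the 5 receptor genes in CPM per kb on a log axis, per kb of all exons (left panel) and per kb of coding sequence (right panel). Each point is 1 library, coloured by eye, and the bar is the mean of 10 libraries. Chrm2 has the highest mean and Chrm5 the lowest on both scales. Chrm1 and Chrm4 overlap per kb of exon and separate per kb of coding sequence, a scale that raises Chrm1 against Chrm4.

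As a share of the summed exon-length-scaled receptor level, Chrm2 made up 29.0% (left eye 66) to 46.3% (left eye 68). Chrm3 made up 19.0% (left eye 64) to 45.4% (right eye 66), and Chrm1 11.4% (left eye 68) to 21.7% (left eye 64). The share of Chrm4 ran from 1.87% (right eye 66) to 27.9% (left eye 66), so the extremes were fellow eyes of 1 animal. The share of Chrm5 was at most 4.03%. The Gq/11-coupled Chrm3 was the largest single share only in right eye 66. In the remaining 9 libraries the Gi/o-coupled Chrm2 was the largest, by a narrow margin in right eye 65 (37.2% against 37.0% for Chrm3).

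**Figure D2:**
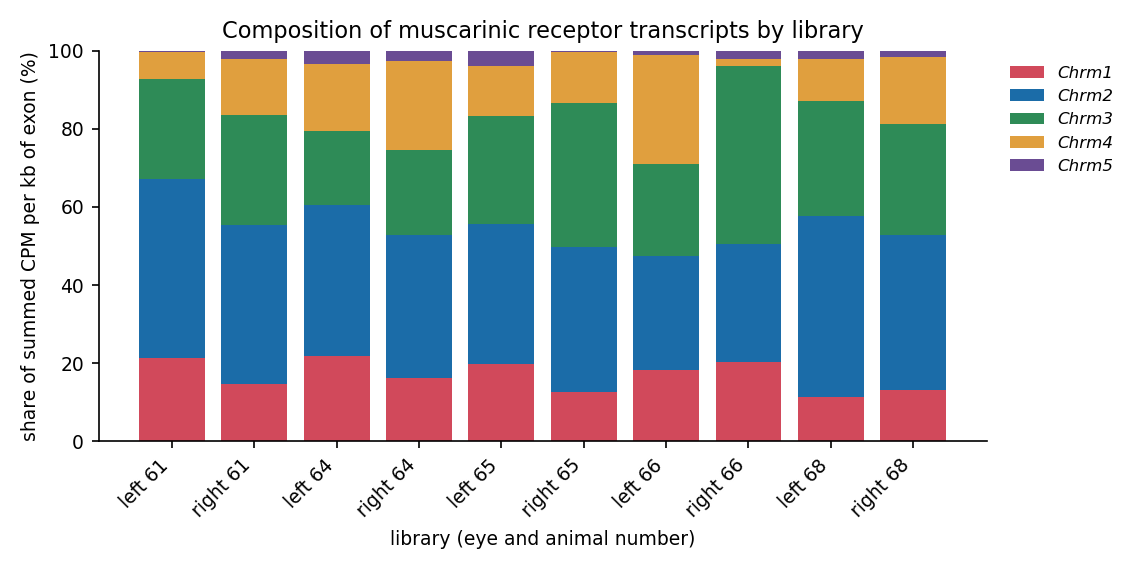
Composition of muscarinic receptor transcripts in each of 10 libraries, as the percentage of the summed CPM per kb of exon (vertical axis) taken by each receptor. Chrm2 and Chrm3 together take most of each bar, and the Chrm4 share is widest in left eye 66 (27.9%) and narrowest in right eye 66 (1.87%).

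The comparison of fellow eyes is the one the protocol was built for, although here it can be made only as right against left. No receptor gene passed the test. Over all genes, limma with animal as a block and Benjamini-Hochberg adjustment called 0 (0%) of the 21082 genes that averaged 0.1 CPM or more, and 638 (3.03%) had an unadjusted p under 0.05. The test was made on log2(CPM + 0.23), a scale that understates changes of low genes, and every log2 difference below is on it. Chrm1 to Chrm4 entered the test, and Chrm5 lay below the 0.1 CPM minimum.

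Chrm3 measured 3.24, 3.04, 4.45, 3.69 and 4.03 CPM in the left eyes of animals 61, 64, 65, 66 and 68, and 4.46, 3.72, 5.30, 4.83 and 4.31 CPM in their right eyes. The right eye was above the left in 5 of 5 animals, while the left and right groups overlapped, since animal 64 was lowest and animal 65 highest on both sides. The within-animal ratio was largest in animal 61 (1.37) and smallest in animal 68 (1.07). Left eyes averaged 3.69 ± 0.574 CPM and right eyes 4.52 ± 0.591 CPM (SD, n = 5 each). The log2 difference was 0.28 ± 0.09 (SE; 95% interval 0.07 to 0.49; limma, unadjusted p = 0.0168, adjusted p = 0.9999), or a fold of 1.21. By exact sign flips within animals, two-sided, p was 0.063, which is the smallest that 5 animals allow. Of the 21082 genes, 385 (1.83%) were higher in the right eye of all 5 animals, and 187 (0.887%) were higher at an unadjusted p under 0.05. Lower at that p were 451 (2.14%). Chrm3 thus did not pass over all genes, and its difference was known when the receptors were chosen.

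Intronic genes on the same strand as Chrm3 were listed beside it. Gm47405, a noncoding RNA at chr13:10064758-10070866 inside the Chrm3 span, had a mean of 2.21 CPM. Left eyes averaged 2.05 ± 0.426 CPM and right eyes 2.37 ± 0.332 CPM (SD, n = 5 each), with higher values in the right eye of 5 of 5 animals and a log2 difference of 0.20 ± 0.12 (limma, unadjusted p = 0.125, adjusted p = 0.9999). Its Pearson correlation with Chrm3 over the 10 libraries was 0.87. Gm47411 (chr13:10048667-10051848), with a mean of 0.915 CPM, was higher in the right eye of 3 of 5 animals and had a correlation of 0.71 with Chrm3. The other same-strand genes there were lower and did not follow Chrm3. Gm47404 (mean 0.157 CPM) was higher in the right eye of 1 of 5 animals, with a correlation of -0.43. For 9330159N22Rik (mean 0.219 CPM) it was 3 of 5 animals, with a correlation of -0.03. The library kit marks strand, but the use of strand in counting was not given in the sources used here, and unspliced Chrm3 RNA and these intronic genes cannot be told apart.

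Marker lists of other cells were compared by side in the same fit. All 8 pigment epithelium markers were higher in right eyes (median log2 difference 0.18; summed level 4832 to 5454 CPM on the left and 5033 to 6690 CPM on the right), as were all 7 endothelial markers (median 0.11; 294 to 319 against 262 to 362 CPM). All 8 surface epithelium markers were lower in right eyes (median -1.01; 340 to 964 against 165 to 712 CPM). None of these genes passed the adjusted test, the sums of left and right eyes overlapped for each list, and the medians stand beside -0.01 for all genes tested. The summed level was higher in the right eye of 3 of 5 animals for pigment epithelium and 4 of 5 for endothelium, and lower in 4 of 5 for surface epithelium. Smooth muscle and pericyte markers, which include cells known to carry M2 and M3 receptors, were higher in 7 and lower in 5 of 12 (median 0.02; 801 to 868 against 732 to 902 CPM). Of the 5 animals, the mean of the pigment epithelium list differed in the same direction as Chrm3 in 4, that of the endothelial list in 4, that of the smooth muscle list in 2 and that of the surface epithelium list in 1. The part of these cells in the Chrm3 difference was not tested.

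Chrm1 measured 2.83, 3.61, 3.34, 2.96 and 1.62 CPM in the left eyes and 2.38, 2.85, 1.86, 2.23 and 2.06 CPM in the right eyes of animals 61, 64, 65, 66 and 68. Right eyes were lower in 4 of 5 animals, most of all in animal 65, and the groups overlapped, with left eye 68 the lowest of all libraries. Left eyes averaged 2.87 ± 0.764 CPM and right eyes 2.28 ± 0.378 CPM (SD, n = 5 each). The log2 difference was -0.28 ± 0.16 (95% interval -0.65 to 0.09; limma, unadjusted p = 0.119, adjusted p = 0.9999; exact sign-flip p = 0.1875). Without animal 68, the only animal in which the right eye was higher, it was -0.42 (limma, unadjusted p = 0.0189, adjusted p = 0.926). In that fit 918 genes had an unadjusted p under 0.05, against 638 with all animals. Without animal 65 the Chrm1 difference was -0.15 (limma, unadjusted p = 0.354, adjusted p = 0.993). Of 13 marker lists, Chrm1 had its highest Pearson correlations with the lacrimal and Harderian gland list (0.66) and the surface epithelium list (0.56). Its lowest was with the fibroblast list (-0.62, n = 10 libraries that share animals). The part of these cells in the Chrm1 values was not tested.

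Chrm2 measured 5.66, 6.02, 5.64, 4.38 and 6.16 CPM in the left eyes and 6.19, 6.06, 5.16, 3.13 and 5.84 CPM in the right eyes of the same animals. Fellow eyes lay close together except in animal 66, whose 2 eyes were the lowest of all 10 libraries. Left eyes averaged 5.57 ± 0.703 CPM and right eyes 5.28 ± 1.26 CPM (SD, n = 5 each). The log2 difference was -0.10 ± 0.10 (95% interval -0.34 to 0.13; limma, unadjusted p = 0.337, adjusted p = 0.9999; exact sign-flip p = 0.5). That interval corresponds to folds of 0.790 to 1.10. Without animal 66 the log2 difference was -0.02.

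Chrm4 measured 0.203, 0.637, 0.478, 1.00 and 0.340 CPM in the left eyes and 0.519, 0.896, 0.431, 0.0457 and 0.594 CPM in the right eyes of the same animals. The right eye was higher in 3 of 5 animals. Animal 66 held both extremes: its left eye had 67 reads and its right eye 4, a 21.9-fold difference, and their exact Poisson intervals (95%, counting error only) were 0.776 to 1.27 and 0.0124 to 0.117 CPM. Left eyes averaged 0.532 ± 0.308 CPM and right eyes 0.497 ± 0.307 CPM (SD, n = 5 each). The log2 difference was -0.11 ± 0.41 (95% interval -1.05 to 0.83; limma, unadjusted p = 0.791, adjusted p = 0.9999; exact sign-flip p = 0.9375), and it turned to 0.40 without animal 66 (unadjusted p = 0.0883).

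The 2 eyes of animal 66 also differed in markers of tissue outside the labelled layers. Surface epithelium markers summed to 964 CPM in its left eye and 165 CPM in its right eye, the highest and the lowest of the 10 libraries. Gland markers summed to 27.4 and 1.61 CPM, again the highest and the lowest, and Schwann cell and myelin markers to 319 and 175 CPM. Averaged over the 10 libraries, the gland sum was mostly Aqp5 (3.21 CPM per kb of exon). The other listed gland genes averaged at most 0.102 CPM per kb (Bhlha15). Skeletal muscle markers went the other way, at 1965 CPM in the left and 7414 CPM in the right eye, as did the autonomic neuron sum (19.1 and 31.2 CPM). The correlations below use the mean log2 level of a list's genes, not the sum. Of 13 marker lists, Chrm4 had its highest Pearson correlations over the 10 libraries with the gland (0.66), autonomic neuron (0.65), surface epithelium (0.61) and Schwann cell lists (0.61). The correlation was lowest with the fibroblast (-0.63) and pigment epithelium lists (-0.52), and was 0.51 with the rod list. The part of these tissues in the Chrm4 values was not tested.

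Chrm5 measured 0.0135, 0.138, 0.167, 0.0448 and 0.0743 CPM in the left eyes and 0.0799, 0.110, 0.0120, 0.0571 and 0.0637 CPM in the right eyes of the same animals. These correspond to 1 to 14 reads per library, and left eye 61 and right eye 65 held fewer than 3. Left eyes averaged 0.0876 ± 0.0640 CPM and right eyes 0.0646 ± 0.0359 CPM (SD, n = 5 each). Fitted without a minimum level over 26360 genes (0% called, 3.27% at an unadjusted p under 0.05), its log2 difference was -0.09 ± 0.15 (limma, unadjusted p = 0.556, adjusted p = 0.9999; exact sign-flip p = 0.6875). Among animals, where that fit called 0.0493% of genes and 5.95% had an unadjusted p under 0.05, Chrm5 had an unadjusted p of 0.604 (limma). No difference in Chrm5 was detectable at this depth.

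**Figure D3:**
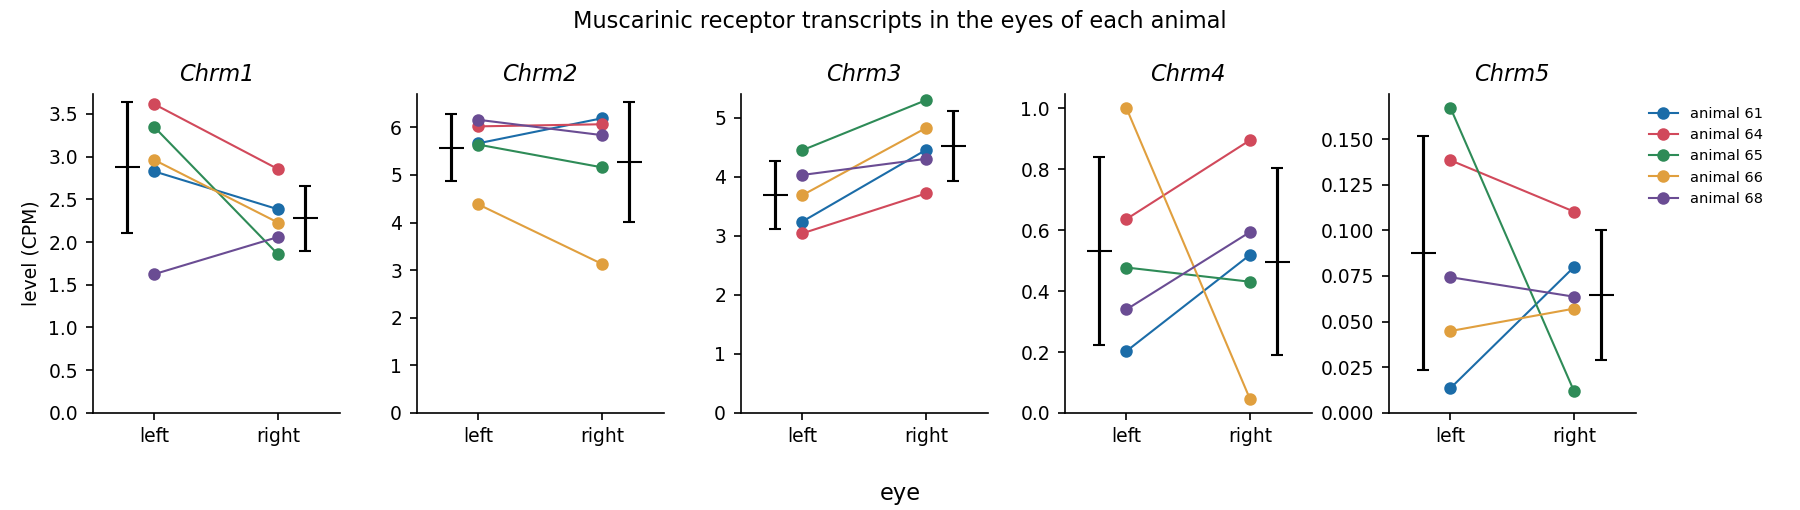
Level of each receptor gene in CPM (vertical axis, scaled per panel from 0) in the left and right eye of 5 animals, joined by a line per animal, with the mean and SD of each side in black. All 5 lines rise for Chrm3, 4 of 5 fall for Chrm1, animal 66 lies lowest for Chrm2, and the eyes of animal 66 are the highest and the lowest libraries for Chrm4.

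Among animals, with fellow eyes giving the spread, no receptor passed the F test of the same fit, which called 13 of 21082 genes (0.0617%) and had 1322 (6.27%) at an unadjusted p under 0.05. Chrm2 came closest, with an unadjusted p of 0.0144 and an adjusted p of 0.667 (limma). The mean of both eyes was 3.75 CPM for Chrm2 in animal 66 and 5.40 to 6.04 CPM in the other animals. The highest and lowest animal differed by 0.67 (log2), and by 0.16 with an unadjusted p of 0.618 (limma) once animal 66 was left out, so the spread of Chrm2 among animals rested on that animal. For Chrm1 the highest and lowest animal differed by 0.74 (unadjusted p = 0.160, adjusted p = 0.815, limma). That was 0.33 without animal 68, 0.46 without animal 64, 0.38 without left eye 68 and 1.10 (unadjusted p = 0.0368, adjusted p = 0.878) without right eye 68. For Chrm3 it was 0.50 (unadjusted p = 0.0767, adjusted p = 0.798, limma), and 0.31 without animal 65. For Chrm4 it was 0.79 (unadjusted p = 0.743, adjusted p = 0.921, limma), less than its eyes differed within animal 66. The Chrm4 value turned on single libraries: it was 2.04 without left eye 66 (unadjusted p = 0.00955, adjusted p = 0.559), 1.31 without right eye 66 (unadjusted p = 0.0429, adjusted p = 0.749) and 1.36 without right eye 61 (unadjusted p = 0.564), against 0.49 without right eye 64 and 0.27 without animal 64. In animal 66, smooth muscle and pericyte markers summed to 828 CPM in the left and 899 CPM in the right eye, inside the range of the other animals (732 to 902 CPM). The part of cell makeup in the Chrm2 level of animal 66 was not tested.

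The genes whose pattern over libraries was most like that of a receptor were looked up among 13152 named genes averaging 1 CPM or more, as a description. For Chrm3 they were Kcnt2, a sodium-activated potassium channel (Pearson r = 0.93), Ccdc167 (0.90) and Mphosph10 (0.88), and without the 2 libraries farthest from the Chrm3 median the values were 0.82, 0.77 and 0.84. For Chrm1 they were Cnot1, the scaffold of the CCR4-NOT deadenylase complex (r = 0.92), Ston2 (0.88) and Flrt1 (0.88), with 0.88, 0.89 and 0.82 without its 2 farthest libraries. For Chrm2 they were Pold1, the catalytic subunit of DNA polymerase delta (r = 0.92), Ccdc162 (0.90) and Per3, a circadian clock gene (0.90). Without the 2 libraries of animal 66 these fell to 0.64, 0.13 and -0.10, so the likeness to Chrm2 rested on that animal. Among the receptors themselves, Chrm1 and Chrm3 had r = -0.61 and Spearman rho = -0.56 over the 10 libraries, and Chrm2 and Chrm4 had r = 0.51 and rho = 0.21. The libraries share animals, and the best of many genes has a high r by selection.

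Genes that make and carry the transmitter were low, and those that break it down were higher. Choline acetyltransferase (Chat), which makes acetylcholine, had a mean of 0.192 ± 0.239 CPM (SD, n = 10 libraries). The vesicular carrier Slc18a3 had one of 0.0609 CPM, and both values are named here after they were seen. Right eye 68, the library with the most rod marker RNA (1702 CPM), held 0.849 CPM of Chat, against 0.0114 to 0.223 CPM in the other libraries. The part of retinal cells in that value was not tested. The choline carrier Slc5a7 had 0.541 ± 0.409 CPM (SD, n = 10 libraries), or 0.0959 CPM per kb of exon. The breakdown enzymes were higher per kb of exon: butyrylcholinesterase (Bche) at 0.526 ± 0.103 and acetylcholinesterase (Ache) at 0.337 ± 0.117 CPM per kb, against 0.657 for Chrm3 and 0.397 for Chrm1. Prima1, the membrane anchor of acetylcholinesterase, averaged 0.450 ± 0.132 CPM on the left and 0.284 ± 0.0599 CPM on the right, and was lower in the right eye of 5 of 5 animals (584 genes, 2.77%, were). Its log2 difference was -0.39 ± 0.16 (limma, unadjusted p = 0.0407, adjusted p = 0.9999). Of 7 genes in this list, 6 were tested, 3 were higher and 3 lower in right eyes, and 0 passed.

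The Gq/11 arm, through which M1, M3 and M5 act, was present at levels well above the receptors. Per kb of exon, the calcium store channel Itpr1 stood at 14.1, the G protein subunit Gnaq at 8.28, protein kinase C beta (Prkcb) at 5.46 and phospholipase Plcb4 at 4.60 CPM per kb, against 0.657 for Chrm3. All 18 genes of the list were tested, with 6 higher and 12 lower in right eyes, a median log2 difference of -0.08 and 0 that passed. Kcnq5, a subunit of the M-current potassium channel that muscarinic receptors close, measured 8.65, 12.8, 11.6, 11 and 11.9 CPM in the left eyes and 7.32, 13.9, 10.4, 6.91 and 7.59 CPM in the right eyes of animals 61, 64, 65, 66 and 68. It was lower in 4 of 5 right eyes, by a log2 difference of -0.31 ± 0.12 (limma, unadjusted p = 0.0317, adjusted p = 0.9999).

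The Gi/o arm, through which M2 and M4 act, was led per kb of exon by Gnai2 (15.7), Gnai3 (14.7), the adenylyl cyclase Adcy6 (6.73) and Gnao1 (4.44 CPM per kb). All 13 genes were tested, with 6 higher and 7 lower in right eyes, a median of -0.01 and 0 that passed. Of proteins that end receptor signalling, the 4 with the highest CPM were Rgs5 (85.9 CPM per kb of exon), a pericyte gene, Rgs9 (8.67), a regulator known from photoreceptors, beta-arrestin 1 (Arrb1, 5.38) and Rgs3 (3.39 CPM per kb). On the per kb scale the receptor kinase Grk2 (5.18 CPM per kb, outside the naming rule) lay above Rgs3. Of the 15 genes in this list, 3 were higher and 12 lower in right eyes, with a median of -0.04 and 0 that passed. Rgs9 averaged 50.8 ± 3.75 CPM on the left and 60.02 ± 9.50 CPM on the right (log2 difference 0.23 ± 0.09; limma, unadjusted p = 0.0400, adjusted p = 0.9999), and its right-eye mean includes 76.5 CPM in right eye 68, the library with the most rod marker RNA (1702 CPM), whose part in the difference was not tested.

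Nicotinic receptor subunits, the other class of acetylcholine receptor and one that atropine does not block at low concentration, were listed for comparison. Of the neuronal subunits, the 4 with the highest CPM were Chrnb4 (1.05 ± 0.293 CPM per kb of exon), Chrna7 (0.482 ± 0.133), Chrnb3 (0.246 ± 0.126) and Chrna4 (0.297 ± 0.111), a range that spans the levels of the 4 better detected muscarinic genes. On the per kb scale Chrna6 (0.323 ± 0.368 CPM per kb, outside the naming rule) lay above Chrna4 and Chrnb3. The neuronal subunits summed to 19.7 CPM in right eye 68, the library with the most rod marker RNA (1702 CPM), and to 6.24 to 14.4 CPM in the others. The part of retinal cells in these levels was not tested. Of the 8 of 11 neuronal subunits tested, 4 were higher and 4 lower in right eyes. Of 5 muscle subunits, Chrnb1 (0.982 ± 0.208 CPM per kb) and Chrna1 (0.0774 ± 0.0207) were tested, with 1 higher and 1 lower, and Chrnd, Chrne and Chrng were near 0. The alpha2 adrenergic receptors, which xylazine activates and which some muscarinic antagonists also bind, were led by Adra2c at 4.19 ± 0.932 CPM per kb, ahead of Adra2a (0.315 ± 0.103) and Adra2b (0.105 ± 0.0414). Of these 3 genes, 1 was higher and 2 were lower in right eyes, and 0 passed.

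**Figure D4:**
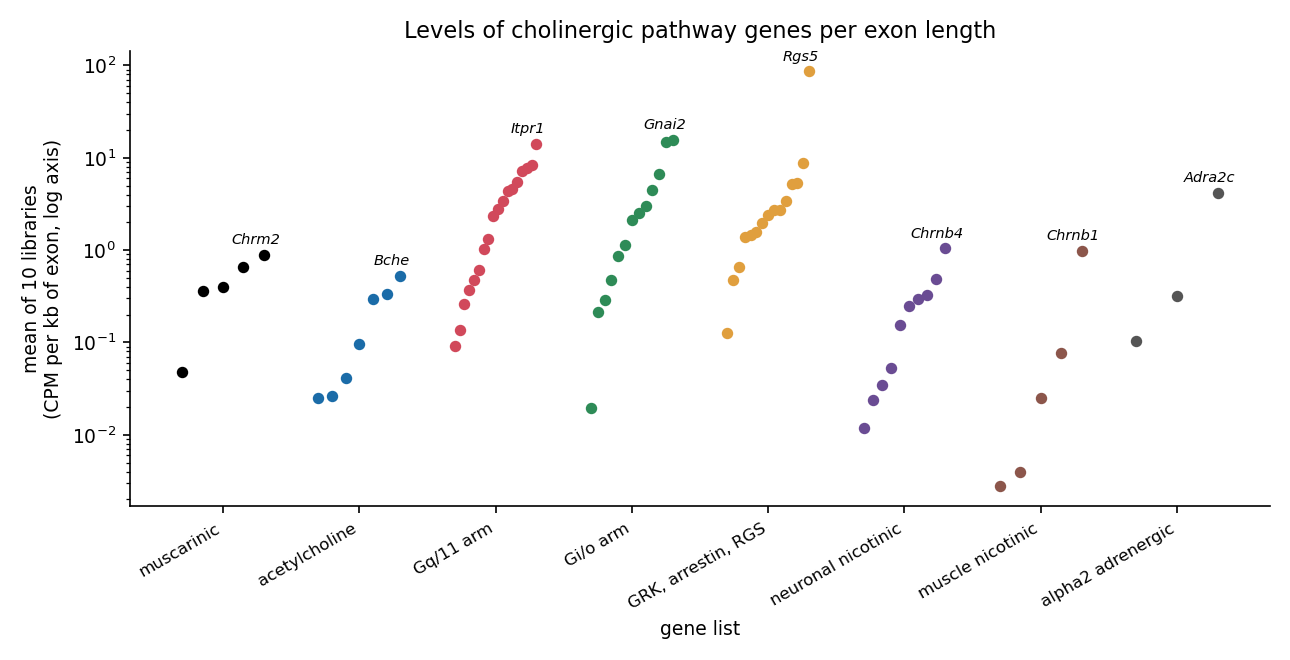
Mean level over 10 libraries in CPM per kb of exon (log axis) of each gene in the muscarinic list and 7 related lists, 1 point per gene, ordered by level within a list and labelled at the highest. The muscarinic genes lie below Itpr1, Gnai2 and Rgs5, and inside the range of the neuronal nicotinic genes, whose highest is Chrnb4 (1.05 CPM per kb).

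Over the 7 related lists, 65 of 72 genes were tested, 24 were higher and 41 lower in right eyes, and the median log2 difference was -0.02 against -0.01 for all 21082 genes, of which 9693 were higher and 11389 lower. Unadjusted p (limma) was under 0.05 for 1 gene that was higher (Rgs9) and 2 that were lower (Kcnq5 and Prima1), and 0 passed after adjustment. Over all genes tested, 187 (0.887%) were higher and 451 (2.14%) lower at that p. Among animals, 8 of the 65 had an unadjusted p under 0.05 (limma) and 0 passed, beside 1322 (6.27%) and 13 (0.0617%) of all 21082 genes.

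**Figure D5:**
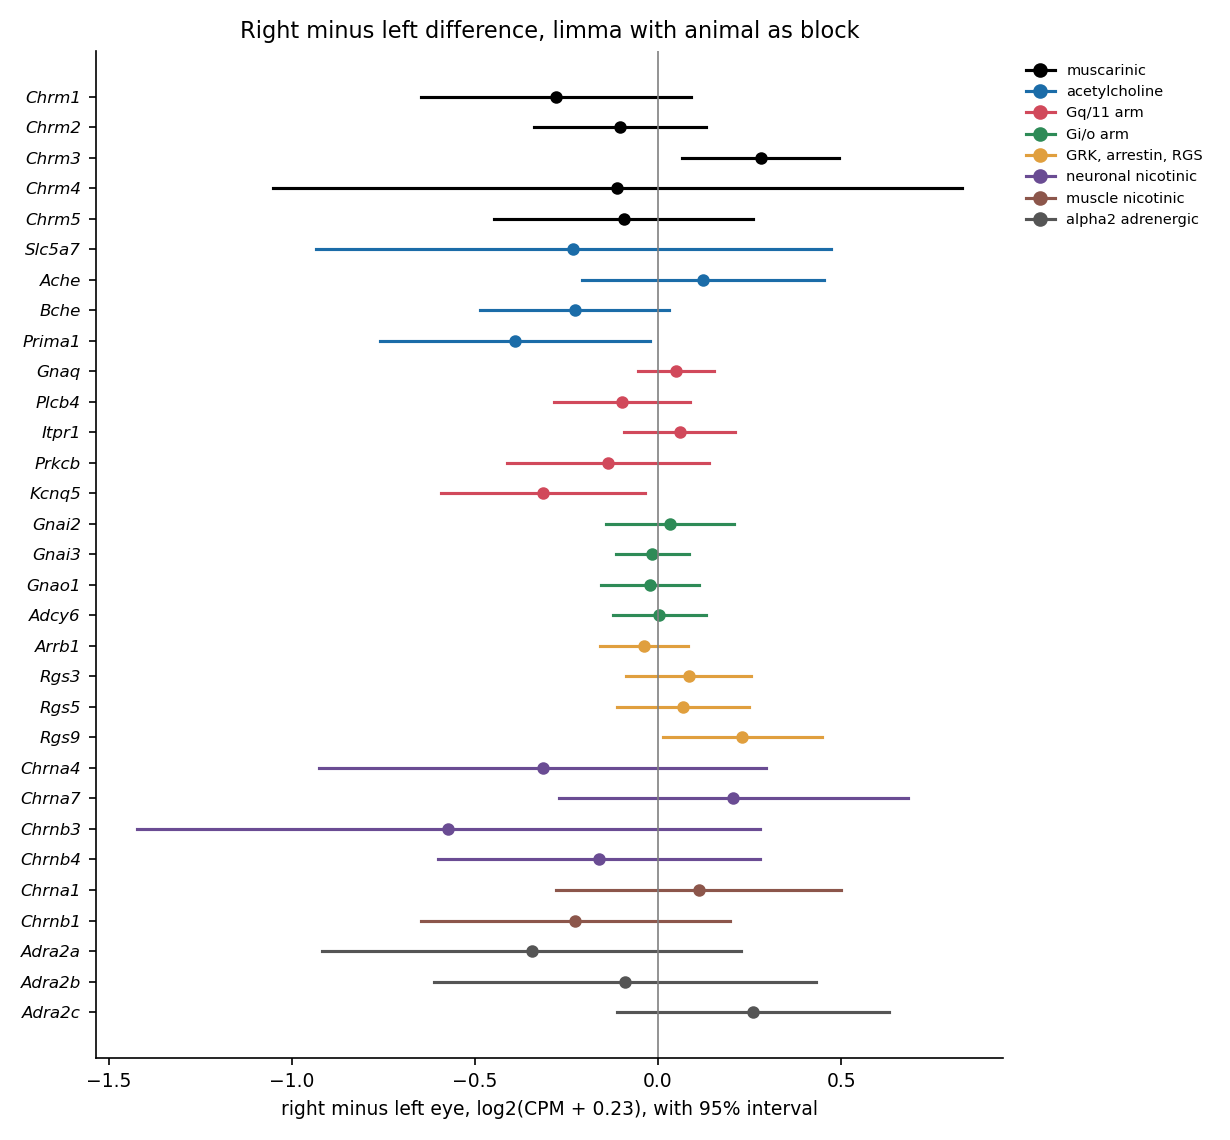
Right minus left difference in log2(CPM + 0.23) with its 95% interval from limma, animal as a block, for the 5 receptors and the named genes of the related lists (Chrm5 from the fit without a minimum level). Intervals of Chrm3 (0.07 to 0.49) and Rgs9 lie above 0 and those of Prima1 and Kcnq5 below 0, before adjustment over all genes, after which none passed.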

How the data were processed

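The authors deposited 1 table of normalized values, which fit CPM plus an offset of 1e-04 (removed here). Per the submitters' processing notes, STAR, Partek and GRCm38 (mm10) were used, while versions, annotation and use of strand were not given in the sources used here. Coordinates of 25737 genes were matched to GENCODE M21 (99.4% of starts and ends equal, the deposited stop being 1 higher). Library totals of 66.9 to 94.3 M reads were implied by the step between low values (88.9% to 89.8% whole within 0.05). The listed genes held 42.7% to 47.1% of each total, and intervals on reads cover counting error only.

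The test ran on log2(CPM + 0.23), the pseudocount being 0.5 CPM of the listed genes' own median total, with limma 3.58.1 (R 4.3.3, trend), animal and eye side as terms and 4 residual degrees of freedom, on genes averaging 0.1 CPM or more, with Benjamini-Hochberg adjustment at 0.05. Per the labels, the 10 libraries are the left and right eyes of 5 animals. The pairing comes from animal numbers shared by fellow eyes, and the correlation of fellow-eye deviations was -0.12 (animal 66) to 0.21 (animal 61). Exact permutation flipped signs within animals. The scripts were tested on simulated data, and alternatives covered the block, scaling, pseudocount, minimum level, weights, moderation and each animal or library left out. The ratio of Chrm2 to Chrm3 and voom on implied reads were added after the values were seen.

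The receptors and lists were chosen with earlier results of these data known. Named were the receptors, up to 4 genes of highest mean CPM per pathway list with any gene past a threshold, up to 3 leading markers and markers near 0, and the 3 named genes most like each receptor averaging 1 CPM or more. Sequences were read from GENCODE M21 transcripts, and figures drawn with matplotlib 3.10.9 in Python 3.11.15.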

Additional observations from a re-analysis of the deposited data

Results flagged for a closer look

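Of 66 groups of 5 libraries checked, 4 held a library whose gap to the nearest of the others, divided by the group's range, was above 0.71, where chance gives about 1 in 20. In right eyes, the 5 receptors summed to 10.3 CPM in animal 66 and to 12.8 to 13.6 CPM in the others, the gap being made up by low Chrm2 and Chrm4. In right eye 68, Ache measured 2.74 CPM against 1.28 to 1.46 CPM in the other right eyes. Left eye 68 was also the highest left eye for Ache, at 2.29 CPM. Right eye 68 had 76.5 CPM of Rgs9 against 52.7 to 58.99 CPM in the others. Right eye 68 had 0.0849 CPM of Chrnd, or 8 reads, where the other right eyes were listed at 0.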

How the results depend on the processing

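No receptor passed the threshold under any alternative run. Chrm1 kept its sign in 26 of 26 alternatives (-0.42 to -0.15), Chrm2 in 27 of 27 (-0.16 to -0.02) and Chrm3 in 26 of 26 (0.24 to 0.33; unadjusted p 0.00938 to 0.0650, adjusted p at least 0.926, limma). Chrm4 kept its sign in 20 of 25. It turned to 0.062 with array weights and 0.043 with voom on implied reads (added after the values were seen), and leaving out an animal or library gave -0.34 to 0.40, the latter without animal 66 or either of its eyes. Chrm5 had a value only without the minimum level. Not all alternatives in these counts were separate checks of the sign. With animal as a block, leaving out a library gave the same difference as leaving out its animal. Dropping the block, changing the minimum level or using robust moderation left the differences of Chrm1 to Chrm4 as they were. Fitted with no replicate block for the animal, Chrm3 was 0.28 (unadjusted p = 0.0440, limma) and 690 genes instead of 638 had an unadjusted p under 0.05. Receptor calls were 0 with and without the block. With a minimum of 5 CPM, which tests fewer genes, 266 genes had an unadjusted p under 0.05. Genes called among animals were 13, but 26 without a side term, 20 with robust moderation and 20 with array weights, and 5 to 11 with an animal or library left out; the cause was not tested. Per kb of gene span, introns included, the places of Chrm1 to Chrm5 became 2, 4, 5, 1 and 3. Depth limits Chrm5 (1 to 14 reads) and Chrm4 in right eye 66 (4 reads).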

Other observations

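The ratio of Chrm2 to Chrm3, chosen after the values of both were seen, was 1.75, 1.98, 1.27, 1.19 and 1.53 in the left eyes and 1.39, 1.63, 0.973, 0.648 and 1.35 in the right eyes of animals 61, 64, 65, 66 and 68. It was lower in the right eye of 5 of 5 animals (1.54 ± 0.330 against 1.20 ± 0.387, SD, n = 5 each; exact sign-flip p = 0.063, the smallest that 5 animals allow). The ratio uses the Chrm3 values given above and is no separate evidence on them. The ratio of Chrm3 to Chrm1 was higher in the right eye of 4 of 5 animals (1.41 ± 0.628 against 2.06 ± 0.560; exact sign-flip p = 0.125), and that of Chrm2 to Chrm1 in 3 of 5 (exact sign-flip p = 0.5). The 3 ratios share genes with one another.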
